A study of Mus musculus with 12 samples.

Results

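Treadmill training was examined in the hearts of healthy mice by setting 3 arrays of trained mice against 3 arrays of sedentary mice, 6 of the 12 arrays of the study. The 6 arrays were chosen by their labels, as every healthy trained and every healthy sedentary array at weeks 1, 3 and 5. All mice were males of the outbred NMRI strain, aged 10 to 15 weeks, and the healthy groups had received an injection of buffer where the diabetic groups received streptozotocin, which destroys pancreatic beta cells. Trained mice ran for 1 h a day on 5 days a week at 21 m/min on a treadmill inclined by 2.5 degrees, and rested for 24 h between the last bout and the removal of the heart. Sedentary mice did not run. Each array held the pooled RNA of 5 hearts, with 1 pool for each group and week, so no value belongs to a single animal. The p-values below set a difference against its variation between weeks, moderated by that of other probe sets. They do not measure variation between animals. The other 6 arrays, of diabetic sedentary and diabetic trained hearts, are used only where a comparison with them is named.

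Endurance exercise loads the heart with volume and raises its use of fatty acids and lactate while it lasts. Repeated over weeks it can lead to physiological growth of the myocardium, which differs from the growth caused by pressure overload in that the fetal genes for atrial natriuretic peptide, brain natriuretic peptide, beta myosin and skeletal alpha actin are usually not induced. Immediate early genes are switched on within minutes by neural, hormonal and mechanical stimuli and fade within hours, so their level at the time of death reflects recent stimulation.

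Signals are MAS5 values from MG_U74Av2 oligonucleotide arrays on a linear scale. Of 12422 probe sets that are not controls, 7453 were bright enough to test, for 5657 named genes. Median signals of the 6 arrays lay between 17.3 and 20.4, and the trained and sedentary arrays of one week correlated at r = 0.951 to 0.966 over the tested probe sets. The brightest control for a transcript that was not added to these 6 arrays read 11.3, so signals near or below that value are close to background. The ratio of the 3' to the 5' probe sets for beta actin, a measure of RNA integrity, was 1.70, 1.99 and 2.11 in the sedentary pools and 2.46, 1.75 and 2.32 in the trained pools at weeks 1, 3 and 5, with overlap between the groups. The 3' control probe set for 18S ribosomal RNA read 322, 1140.9 and 3809.3 in the sedentary pools and 439.2, 112.5 and 2835.5 in the trained pools. The pair of week 3 lay furthest apart, and the part of this in the other differences was not tested. All healthy sedentary arrays ran on one fluidics module and all healthy trained arrays on another, so training and module cannot be told apart. In pooled tissue RNA a lower signal can come from fewer cells of a type or from less RNA per cell, and these cannot be told apart here.

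Transcripts known from lung were high in the sedentary pool of week 1 and, for Scgb1a1 and Sftpc, in that of week 3. Scgb1a1, the club cell secretory protein of the airway, read 205.4, 55.6 and 12.8 in sedentary hearts at weeks 1, 3 and 5 and 15.7, 15.6 and 8.8 in trained hearts. Sedentary values of the first 2 time points stood far above the 6 diabetic arrays, where Scgb1a1 lay between 7.3 and 19.2, and the week 5 value did not. Cyp2f2, a cytochrome P450 of the same club cells, was 69.5, 27.0 and 9.8 in sedentary and 14.2, 19.6 and 13.9 in trained hearts. It was high at week 1, while the week 3 value lay within the diabetic range of 9.7 to 36.1, whose top was the diabetic trained array of week 3. Sftpc, the surfactant protein of alveolar type II cells, was 23.2, 29.7 and 16.2 against 9.6, 12.4 and 12.5, with every sedentary array above every trained one and the first 2 sedentary values above the diabetic range of 9.6 to 17.2. Ager, a marker of alveolar type I cells, read 38.6 in the sedentary array of week 3 and between 8.6 and 15.5 in the other 5, although the diabetic trained array of week 3 also reached 34.3.

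Of 17 lung markers 8 are on the array and 4 were bright enough to test. The other 4, Napsa, Sftpb, Sftpd and Slc34a2, lay between 1.1 and 13.1 on all 6 arrays. The summed signal of all 8 was 327.1, 178.8 and 65.9 in sedentary and 75.4, 85.6 and 63 in trained hearts at weeks 1, 3 and 5, and between 53.2 and 137.9 on the diabetic arrays. Without Scgb1a1 and Cyp2f2 it was 52.2, 96.2 and 43.3 in sedentary and 45.5, 50.4 and 40.3 in trained hearts, and between 36.2 and 82.6 on the diabetic arrays. The sedentary excess at week 1 thus lay mostly in these 2 genes.

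**Figure D1:**
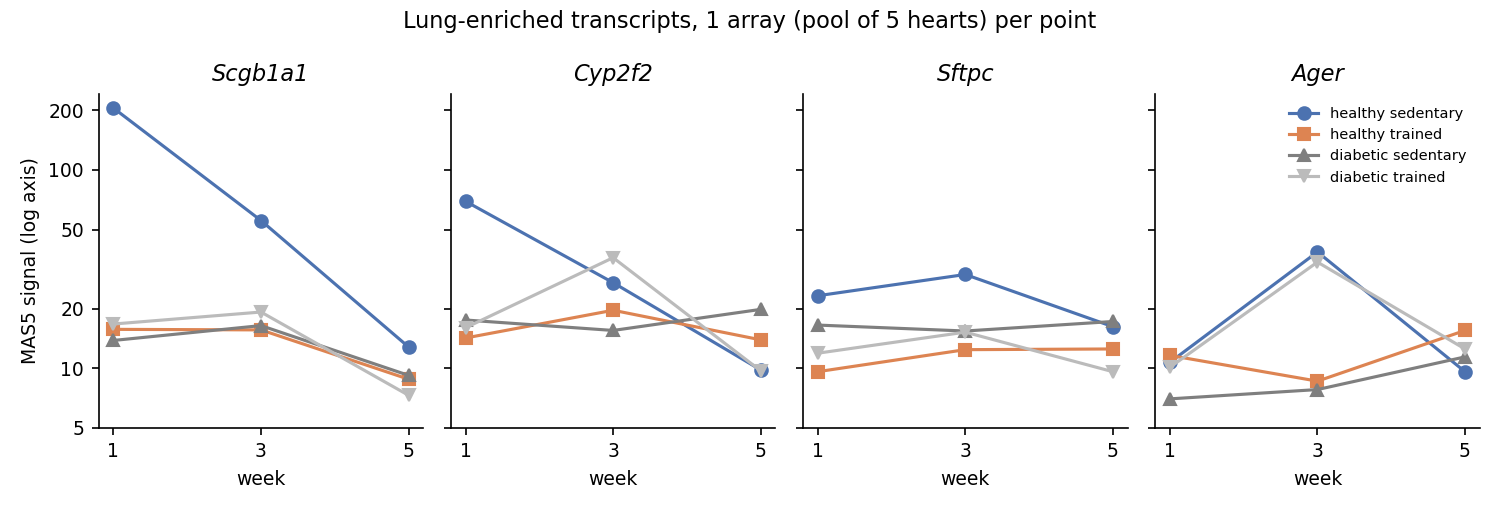
MAS5 signal (log axis) of Scgb1a1, Cyp2f2, Sftpc and Ager against week for the 4 conditions, with 1 array per point and lines joining arrays of one condition. Scgb1a1 stands at 205.4 and 55.6 in the healthy sedentary pools of weeks 1 and 3 and at 12.8 in that of week 5.

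Training as a whole was compared over the 3 week-matched pairs with a limma model that kept week as a block. None of the 7453 probe sets passed an adjusted p of 0.05 (0%), and the lowest adjusted p was 0.875. At an unadjusted p under 0.05 there were 385 probe sets (5.17%), close to the share that the threshold itself allows, 156 of them higher (2.09%) and 229 lower (3.07%) in trained hearts. All trained arrays lay above all sedentary ones in 184 probe sets (2.47%) and below them in 195 (2.62%). The median standard error of a log2 difference was 0.185. With 3 pairs an exact paired permutation of a single value cannot give a two-sided p below 0.25.

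The weeks did not repeat each other over the whole array. Log2 differences of weeks 1 and 3 correlated at r = -0.007 across probe sets, those of weeks 1 and 5 at -0.049, and those of weeks 3 and 5 at 0.172. These correlations are descriptions across probe sets, which are not independent replicates. At least a 2-fold difference between the single trained and sedentary array was seen in 324 probe sets at week 1, where 148 were higher (1.99%) and 176 lower (2.36%) in trained hearts. It was seen in 361 at week 3, with 142 higher (1.91%) and 219 lower (2.94%), and in 280 at week 5, with 140 in each direction (1.88%). Just 3 probe sets were 2-fold higher in every week (0.0403%) and 4 were 2-fold lower (0.0537%). They are described with the single genes below.

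**Figure D2:**
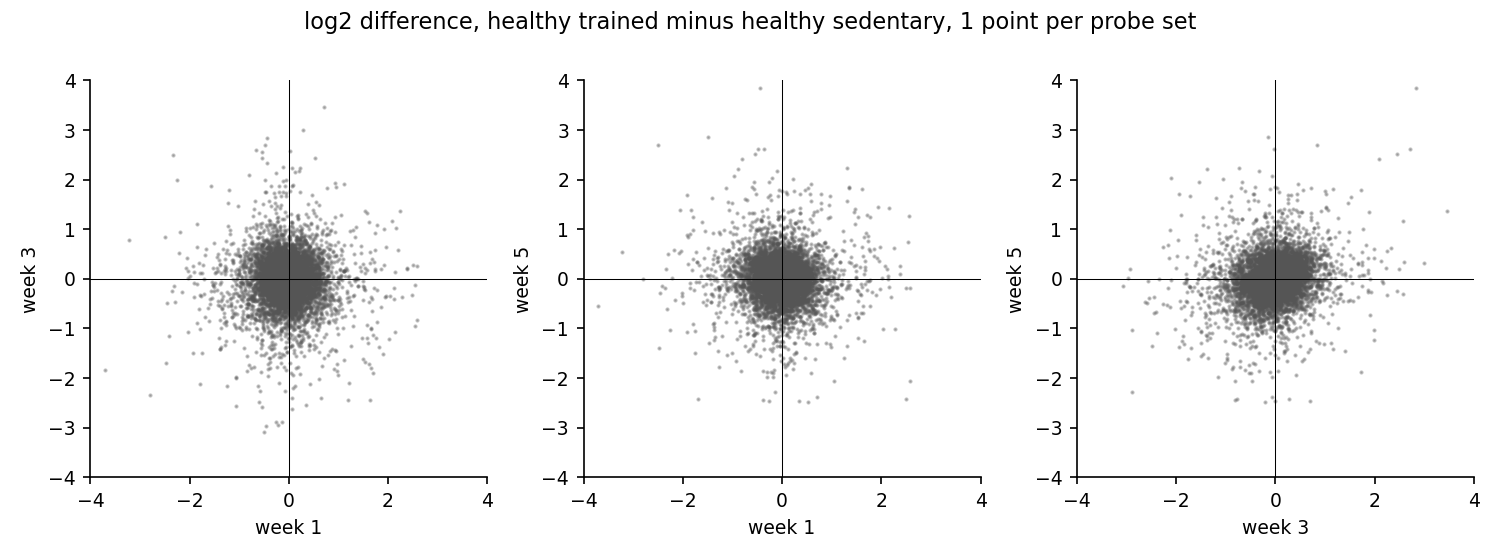
Log2 difference between the healthy trained and the healthy sedentary array at one week against that at another, with 1 point per tested probe set (7453) and axes from -4 to 4. The clouds of week 1 against weeks 3 and 5 are round (r = -0.007 and -0.049), and that of week 3 against week 5 leans slightly upward (r = 0.172).

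Leaving out week 1, where Scgb1a1 and Cyp2f2 were highest, gave 32 probe sets past an adjusted p of 0.05 in the limma fit. Of these, 13 were higher and 19 lower in trained hearts. The pair of week 3, whose sedentary array had the highest Sftpc and Ager, stayed in that fit. Leaving out week 3 or week 5 gave none. At week 1 only 14 of the 32 differed in the same direction. Pdk4, Hspd1, Pdgfra, Slc35g3, Txnrd3 and Pus1, described below, all belong to these 14. The 2 smallest adjusted p-values belonged to probe sets without a single gene symbol, which were higher in trained hearts by 3.34 and 2.66 log2 units. At week 1 their differences were -0.45 and -0.48. The fit without week 1 rests on 2 pairs, also wherever its values are given below.

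Immediate early genes were lower in trained hearts where they differed in every week. Of 25 on the array 22 were bright enough, and 6 of these were lower in 3 of 3 weeks (Nr4a1, Fos, Btg2, Dusp1, Atf3 and Gadd45g) and none higher, where 13.2% of all named genes were lower and 11.8% higher in every week. The same 6 had an unadjusted p under 0.05, against 2.74% of genes in that direction and 2.1% in the other. The groups did not overlap for Nr4a1, Fos and Dusp1 (2.39% of genes and 2.62% of probe sets were lower without overlap). Atf3 and Dusp1 were named after their values were seen. The median over the 22 genes was -0.14, and it was -0.24, -0.08 and -0.36 at weeks 1, 3 and 5, against 0.00 over all named genes. No member passed the adjusted test.

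Nr4a1 encodes the orphan nuclear receptor Nur77, a rapid target of adrenergic, calcium and cAMP signals in muscle. It read 65.9, 59.0 and 69.0 in sedentary hearts and 25.8, 39.5 and 30.6 in trained hearts at weeks 1, 3 and 5, with a wide gap between the groups. Its log2 difference was -1.03 (SE 0.19, limma, unadjusted p = 0.000767). Fos, a subunit of the transcription factor AP-1, was 15.1, 24.4 and 17.5 in sedentary hearts and 5.8, 9.2 and 9.5 in trained hearts. All 3 trained values lay under the 11.3 of the brightest absent control, so the trained level is near background and the difference of -1.22 (SE 0.33) is imprecise. Btg2, an antiproliferative immediate early gene, was 159.9, 172.7 and 99.8 in sedentary and 113.7, 108.9 and 67.1 in trained hearts. The trained array was the lower in each week, although the sedentary value of week 5 lay under 2 trained values (log2 difference -0.58, SE 0.13).

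Dusp1, a phosphatase that switches off MAP kinases, was 248.7, 269.3 and 308.6 in sedentary and 175.6, 208.6 and 241.2 in trained hearts. Both groups were higher at later weeks and did not overlap (log2 difference -0.41, SE 0.11). Atf3, a stress-induced factor of the CREB family read by a probe set that can share probes with related sequences, was 30.8, 55.6 and 28.3 against 20.6, 34.7 and 21.6. Gadd45g, a stress and growth arrest gene, was 30.4, 34.8 and 12.9 against 18.8, 25.8 and 7.6, the last value being under that of the brightest absent control. For both genes the trained array was lower in each pair but the groups overlapped.

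The choice of genes lower in every week fixes the sign of these 6 in each pair; at week 5 their log2 differences ran from -1.17 for Nr4a1 to -0.36 for Dusp1. The part of lung transcripts in the values of weeks 1 and 3 was not tested. The difference was not general to the class. Egr1, the zinc finger factor most used as a marker of acute stimulation, had a log2 difference of -0.09 (SE 0.18) and Jun one of -0.14 (SE 0.17), both with signs that differed between weeks; these 2 were picked after their values were seen.

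**Figure D3:**
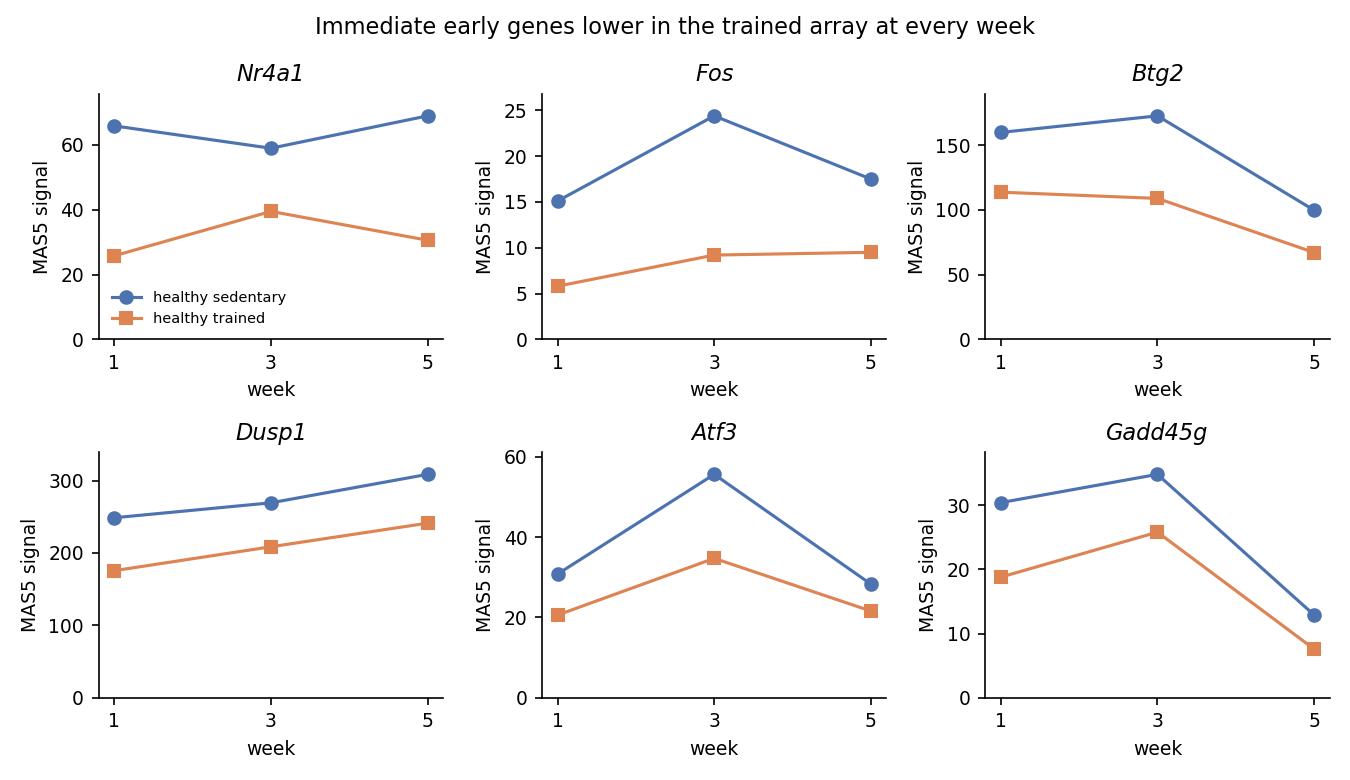
MAS5 signal of 6 immediate early genes against week in healthy sedentary and healthy trained hearts, with 1 array (a pool of 5 hearts) per point and lines joining the separate pools of a group. The trained point lies under the sedentary point in every panel and week, and the groups do not overlap for Nr4a1, Fos and Dusp1.

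Promoters of 4 of these genes are shown because many immediate early genes are induced through cAMP response elements (CRE), which bind the CREB and ATF factors. Sequences are RefSeq windows of 300 bases in build GRCm38.p6, from 250 bases before to 50 bases after the annotated start, written 5′ to 3′ along the gene. Capitals mark the palindromic full element TGACGTCA and its half-sites TGACG and CGTCA, which are the same site read on either strand, so that each full element also holds 2 overlapping half-sites.
Nr4a1 (chr15:101266596-101266895, plus strand): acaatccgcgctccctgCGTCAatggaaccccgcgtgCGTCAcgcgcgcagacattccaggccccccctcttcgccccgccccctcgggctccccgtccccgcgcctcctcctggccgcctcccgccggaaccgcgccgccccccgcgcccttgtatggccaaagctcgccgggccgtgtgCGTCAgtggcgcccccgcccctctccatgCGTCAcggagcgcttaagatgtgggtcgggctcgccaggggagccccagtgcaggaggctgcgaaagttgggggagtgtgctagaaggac
Fos (chr12:85473640-85473939, plus strand): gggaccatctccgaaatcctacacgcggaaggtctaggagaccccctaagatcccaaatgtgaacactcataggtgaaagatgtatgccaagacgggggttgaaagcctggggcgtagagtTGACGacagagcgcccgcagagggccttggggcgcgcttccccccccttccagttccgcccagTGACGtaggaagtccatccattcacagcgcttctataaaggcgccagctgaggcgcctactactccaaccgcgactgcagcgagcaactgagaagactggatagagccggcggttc
Btg2 (chr1:134079106-134079405, minus strand): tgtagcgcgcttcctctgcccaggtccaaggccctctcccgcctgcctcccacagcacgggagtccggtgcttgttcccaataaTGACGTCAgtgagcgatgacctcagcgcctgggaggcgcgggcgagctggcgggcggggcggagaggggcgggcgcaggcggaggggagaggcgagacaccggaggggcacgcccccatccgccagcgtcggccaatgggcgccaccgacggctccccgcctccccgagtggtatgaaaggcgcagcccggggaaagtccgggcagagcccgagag
Dusp1 (chr17:26508423-26508722, minus strand): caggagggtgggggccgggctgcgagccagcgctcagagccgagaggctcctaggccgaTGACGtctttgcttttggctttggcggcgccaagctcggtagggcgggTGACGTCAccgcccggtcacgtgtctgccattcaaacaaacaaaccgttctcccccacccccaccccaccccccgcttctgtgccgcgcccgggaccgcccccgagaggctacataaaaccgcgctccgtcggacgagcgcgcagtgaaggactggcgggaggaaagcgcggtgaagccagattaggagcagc
Btg2 held the full element with its first base at -166 from the start, and Dusp1 held it at -143 with a further half-site. Nr4a1 held 4 half-sites and Fos 2. Of the 6 genes, 2 held the full element and 5 at least a half-site; Gadd45g held neither in this window. Over 32544 windows of the same length in the mouse annotation, 1.8% held the full element and 20.9% a half-site. The other tested immediate early genes, Egr1 and Jun among them, were not looked up. The shares therefore do not set the 6 genes apart from the rest of their class. A match in the letters is a description of the promoter and was not tested for binding here.

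Pyruvate dehydrogenase kinase 4, Pdk4, which blocks entry of pyruvate into the tricarboxylic acid cycle and is induced by fasting and fatty acids through PPARalpha, was the member that stood apart among genes of fuel use. It read 444.7, 552.7 and 458.8 in sedentary and 373.6, 288.6 and 299.4 in trained hearts. Every trained array lay under every sedentary one, and the gap was narrow at week 1 and wide at weeks 3 and 5. The log2 difference was -0.60 (SE 0.15, limma, unadjusted p = 0.00352), and without week 1 it was -0.78 (limma, adjusted p = 0.0305). Of 13 tested PPARalpha and fasting-response genes Pdk4 alone was lower in every week and Esrra alone was higher. Of the 13, 12 lay within 0.3 log2 units of no difference (median -0.05), beside 81.9% of all named genes.

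Fabp4, the fatty acid binding protein of adipocytes and capillary endothelium, was 66.6, 52.3 and 74.5 in sedentary and 34.4, 29.1 and 52.3 in trained hearts. It was lower in each pair, and the trained array of week 5 equalled the sedentary array of week 3 (log2 difference -0.77, SE 0.17). Other adipocyte markers did not share this direction. Of 6 tested, Fabp4 alone was lower in every week and 3 were higher (median 0.01), beside 13.2% and 11.8% of all named genes. Acsm2, a medium-chain acyl-CoA synthetase, was 25.8, 42.7 and 29.9 against 8.0, 24.9 and 5.6, with trained arrays below the sedentary ones and 2 of the trained values near background (log2 difference -1.63, SE 0.34).

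The enzymes that oxidise fat and carry electrons held close to the sedentary level. All 23 tested genes of fatty acid uptake and beta-oxidation had log2 differences within 0.3 (median -0.02), as did 57 of 58 genes of the respiratory chain and ATP synthase (median 0.04); 81.9% of all named genes lay within that distance. Acadm, medium-chain acyl-CoA dehydrogenase, was 1055.5, 1169 and 1286.4 in sedentary and 849.5, 889.5 and 1253.9 in trained hearts. It was lower in each pair with little difference at week 5 (-0.25, SE 0.11). Of 30 genes of glucose uptake, glycolysis and glycogen, 3 were higher and 3 lower in every week, Pdk4 among the latter (median -0.02). Thrsp, a regulator of lipogenesis, was 146.0, 120.3 and 120.6 in sedentary and 158.7, 152.9 and 188.3 in trained hearts, without overlap (0.37, SE 0.14).

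Genes of the fetal and load-response programme showed no common direction. Of 19 tested, none was higher and 3 were lower in every week (Myh7, Gata4 and Myl4), and the median was 0.01. Myh7, the slow beta myosin heavy chain, read 1106.1, 1503.9 and 934.9 in sedentary and 1099.6, 1026.2 and 624.3 in trained hearts. The arrays of week 1 were nearly equal and the trained array was lower at weeks 3 and 5 (log2 difference -0.38, SE 0.14). Its probe set can share probes with related myosins.

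Natriuretic peptides and skeletal actin, named here for their role and after their values were seen, differed by week. Nppa, atrial natriuretic peptide, was 740.1, 878.9 and 453.8 in sedentary and 744.5, 830.2 and 464.7 in trained hearts, a log2 difference of -0.01 (95% interval -0.25 to 0.23). Nppb, brain natriuretic peptide, was 905.5, 757.6 and 610.0 against 571.9, 1527.9 and 701.6, lower at week 1, about 2-fold higher at week 3 and slightly higher at week 5. Acta1, skeletal alpha actin, was 813.1, 631.6 and 959.6 against 734.1, 1172.0 and 582.9, higher at week 3 alone. Both differences of week 3 rest on 1 trained array.

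Other cardiomyocyte genes mostly had small differences, as did most genes on the array. Of 14 markers 13 lay within 0.3 (median -0.08), and of 21 sarcomere and Z-disc genes 18 did (median -0.08), beside 81.9% of all named genes. Actn2, alpha-actinin of the Z-disc, was 41.4, 61.1 and 53.6 in sedentary and 44.5, 46.6 and 25 in trained hearts. The lowest value was the trained array of week 5 and the groups overlapped (-0.46, SE 0.24). Among 21 genes of calcium handling and contraction signalling, 4 were lower in every week (Camk2d, Adra1b, Prkar2a and Camk2b) and 2 were higher (Fkbp1b and Ryr2), with a median of -0.07. Camk2b, a calcium and calmodulin dependent kinase subunit, was 39.3, 50.4 and 27.7 against 28.2, 32.2 and 24.6, and Ryr2, the calcium release channel, was 522.4, 484.5 and 671.3 against 626.9, 526.3 and 777.9. Both pairs of groups overlapped.

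Insulin and IGF signalling, the route to physiological growth, gave 1 gene higher and 2 lower in every week of 20 tested (median -0.01). Grb10, an adaptor that dampens insulin and IGF receptors, was 18.3, 19.1 and 11.8 in sedentary and 2.9, 16 and 8.8 in trained hearts, with the low value of week 1 setting most of the difference (-0.95, SE 0.45). Of 21 cell cycle genes 1 was higher and 3 lower in every week (median -0.09). Mcm3, a subunit of the replicative helicase, was 33.5, 34.8 and 15.5 against 42.9, 38.0 and 39.0 without overlap, while Tk1, thymidine kinase of S phase, was 51.9, 38.9 and 30.6 against 21.9, 32.6 and 19.4. The 2 genes thus stood on opposite sides, and a dimmer second probe set of Tk1 showed no clear difference (-0.02, SE 0.64).

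The inducible heat shock genes Hspa1b, Hspa1a and Dnajb1 had their highest values in the sedentary array of week 3. Hspa1b, an inducible Hsp70, read 90.6, 395.3 and 60.8 in sedentary and 38.0, 88.1 and 53.2 in trained hearts. Its near-identical copy Hspa1a was 91.3, 346.2 and 45.2 against 42.6, 145.3 and 67.6, and the co-chaperone Dnajb1 was 48.8, 70.7 and 28.6 against 19.8, 38.1 and 36.9. The trained array was lower at weeks 1 and 3 for all 3 genes, and at week 5 the log2 differences were -0.19, 0.58 and 0.37. Weeks 1 and 3 are also the weeks with lung transcripts in the sedentary pools, and the part of these in the heat shock values was not tested.

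Hspd1, the mitochondrial chaperonin Hsp60, was 828.0, 1294.0 and 625.1 in sedentary and 761.9, 736.2 and 404.4 in trained hearts. It was lower in each pair (log2 difference -0.52, SE 0.15; without week 1, -0.72 with a limma adjusted p of 0.0305). Fkbp5, a co-chaperone of the glucocorticoid receptor and one of its best known targets, was 44.6, 24.5 and 35.8 in sedentary and 64.5, 43.5 and 47.0 in trained hearts, higher in each pair (0.58, SE 0.17). Over 25 heat shock proteins and co-chaperones 4 were lower and 1 higher in every week (median 0.00), and over 21 glucocorticoid and FoxO response genes 3 were higher and 2 lower (median 0.03).

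Clock genes differed in both directions. Tef, a PAR-bZIP output factor of the clock, was 123.7, 93.6 and 112.4 in sedentary and 187.9, 141.3 and 141.6 in trained hearts, and Cry1, a repressor of the core loop read by a probe set that can share probes with relatives, was 59.9, 84.1 and 56.9 against 89.5, 98.9 and 93.1. Neither pair of groups overlapped (0.51, SE 0.13, and 0.51, SE 0.15). Nr1d1, the repressor REV-ERBalpha, was 90.1, 98.3 and 49.2 against 50.3, 57.5 and 40.2, lower in each pair (-0.64, SE 0.17). Dbp, another PAR-bZIP factor, was 27.2, 18.8 and 40.8 against 10.4, 10.6 and 42.4, lower at weeks 1 and 3 and level at week 5.

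The list of clock genes had 14 tested members, of which 3 were higher and 2 lower in every week (median -0.08). One of the higher members, Tspan4, is a tetraspanin and was listed by mistake; without it 2 were higher and 2 lower of 13 (median -0.13). Transcripts of this kind swing through the day, and the sources used here do not state at what hour each group was killed.

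No stromal or immune gene passed the adjusted test over the 3 weeks, and single members differed in each pair. Of all named genes 2.53% had every trained array above every sedentary one. Pdgfra, the receptor for platelet-derived growth factor carried by cardiac fibroblasts, was 165.2, 109.7 and 124.8 in sedentary and 231.0, 191.6 and 209.6 in trained hearts. All trained arrays lay above all sedentary ones, by 0.48, 0.80 and 0.75 log2 units at weeks 1, 3 and 5, with a mean difference of 0.68 (SE 0.13, limma, unadjusted p = 0.000784; without week 1, 0.78 with an adjusted p of 0.046). Thy1, a surface glycoprotein of fibroblasts and T cells, was 7.2, 18.5 and 19.7 against 22.3, 27.1 and 27.2, again without overlap. Its sedentary value of week 1 was at background, and the log2 differences were 1.63, 0.55 and 0.47 at weeks 1, 3 and 5. Mfap4, a protein of elastic microfibrils, was 22.1, 9.4 and 6.5 against 32.7, 19.1 and 21.3, higher in each pair but with 2 sedentary values at background.

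Counts of these and all other lists stand beside 11.8% of all named genes higher and 13.2% lower in every week. Of 13 fibroblast markers 2 were higher in every week (Thy1 and Pdgfra) and 1 lower (Col1a2), with a median of 0.08, and of 40 collagens and matrix genes 4 were higher and 3 lower (median 0.00). Among 11 macrophage and neutrophil markers 4 were higher in every week (Lyz2, C1qb, Mrc1 and Cd68) and 1 lower (Elane, -0.41, SE 0.22), with a median of 0.21. The median of this list was 0.25, -0.06 and 0.19 at weeks 1, 3 and 5, so it was not higher at week 3. Lyz2, lysozyme of myeloid cells, was 169.3, 105.0 and 206.0 in sedentary and 190.8, 162.2 and 279.8 in trained hearts, higher in each pair with overlap (0.41, SE 0.13). Coro1a, an actin regulator of leukocytes, was 24.5, 22.9 and 22.2 against 46.8, 37.0 and 34.7, with every trained array above every sedentary one (0.76, SE 0.19). Gbp2, an interferon-induced GTPase, was 49.9, 26.0 and 45.6 against 57.0, 61.0 and 58.5, also without overlap (0.59, SE 0.22). Over the 26 interferon and antigen presentation genes 4 were higher and 1 lower in every week (median 0.07).

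Vessel genes differed little. Of 13 endothelial markers 3 were higher in every week (Aqp1, Flt1 and Icam2) and none lower, with a median of 0.11 that was 0.21 at week 1 and 0.00 at week 5. Aqp1, the water channel of capillary endothelium and red cells, was 250.6, 231.7 and 353.7 in sedentary and 359.2, 302.6 and 384.7 in trained hearts. Among 27 VEGF family and angiogenic genes 4 were higher in every week (Pdgfra, Angpt2, Fgfr1 and Flt1) and 1 lower (Ang), median 0.04. Flt1, a VEGF receptor, was 79.6, 109.7 and 91.8 against 121.1, 116.2 and 109.0, while its second probe set showed no such difference (-0.03, SE 0.16).

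Transcripts of blood, skeletal muscle and nerve were examined as possible signs of other tissue in the pools, and their source was not tested. Alas2, the erythroid enzyme of haem synthesis, was 79.9, 80.2 and 80.4 in sedentary and 180.2, 90.5 and 102.2 in trained hearts, above in each week and most at week 1. The beta globin Hbb-b2 was 640.4, 726.1 and 701.3 against 1117.2, 604.2 and 858.9, so its sign differed at week 3. Of 9 skeletal muscle markers 4 were lower in every week and none higher (median -0.19), beside 13.2% and 11.8% of all named genes. Myh4, fast myosin, was 33.8, 52.0 and 42.5 against 27.6, 28.8 and 30.6. Of 3 nerve and glia markers that were bright enough 2 were lower (median -0.71), and Npy, the cotransmitter of sympathetic nerves, was 24.7, 52.9 and 22.6 against 15.7, 29.7 and 13.7, lower in each pair. Chga, chromogranin A of neuroendocrine granules, was 42.3, 40.8 and 34.3 against 14.1, 30.6 and 31.2, with the largest gap at week 1. The part of such tissue in the other differences was not tested.

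Housekeeping machinery differed little in size. Of 58 mitochondrial ribosomal proteins 15 were higher and 3 lower in every week, with a median of 0.07 (-0.02, 0.17 and 0.08 at weeks 1, 3 and 5). Of 23 cytoplasmic ribosomal proteins 7 were higher and 1 lower (median 0.07), and of 42 proteasome subunits 6 were higher and 3 lower (median 0.06). The background was 11.8% higher and 13.2% lower. Mrps24 of the small mitochondrial subunit was 97.3, 83.7 and 99.2 in sedentary and 124.1, 93.9 and 156.9 in trained hearts, and Rps19 of the cytoplasmic small subunit was 170.0, 150.3 and 220.5 against 216.3, 212.4 and 236.5. Both were higher in each pair, with overlap.

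**Figure D4:**
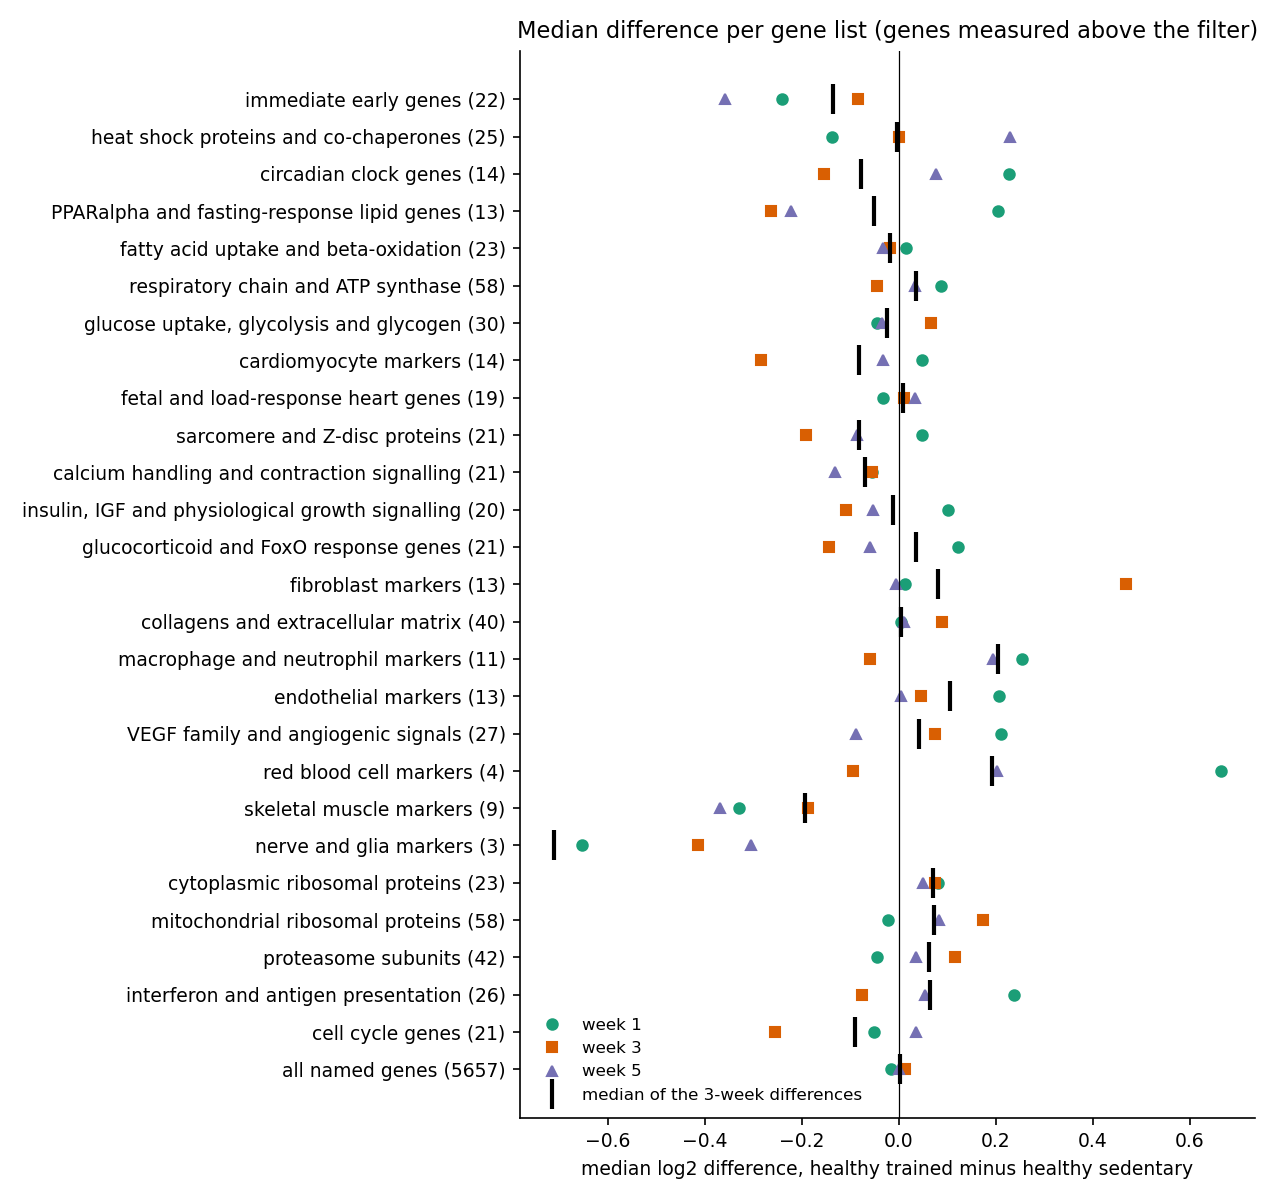
Median log2 difference, healthy trained minus healthy sedentary, over the tested genes of each list (number in brackets), at week 1, week 3 and week 5 (points) and for the 3-week differences (bars). Most lists lie within 0.3 of 0 in each week.

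Among single genes the smallest unadjusted p-values belonged to transcripts of low signal. Slc35g3, a member of a solute carrier family, was 27.7, 50.1 and 44.6 in sedentary and 8.2, 17.8 and 21.5 in trained hearts (log2 difference -1.43, SE 0.23, limma, unadjusted p = 0.00025). Prss8, the epithelial serine protease prostasin, was 24.8, 45.5 and 28.3 against 9.6, 17.5 and 12.1 (-1.32, SE 0.23). Tanc1, a scaffold protein, was 33.4, 20.5 and 19.8 against 6.0, 6.3 and 7.5 (-1.86, SE 0.35). The groups did not overlap for any of these 3, and with Adam11, a member of the ADAM family, they were the 4 probe sets that were 2-fold lower in every week.

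The 3 that were 2-fold higher in every week were Rps6kb2, Tcf25 and Pim1. Rps6kb2, the ribosomal S6 kinase 2 that acts downstream of mTOR, was 11, 13.4 and 6.3 in sedentary and 33.5, 29.8 and 22.1 in trained hearts (1.52, SE 0.27). Sedentary values were at or near background and trained values above it. For Tcf25 and Pim1 a brighter second probe set gave log2 differences of -0.40 (SE 0.23) and -0.10 (SE 0.18), in the other direction. The same held for Galm, whose brightest of 5 probe sets read -0.24 (SE 0.14) where the named one read 0.85 (SE 0.17). Ppp2r5d, a regulatory subunit of protein phosphatase 2A, was 10.2, 8.3 and 17.3 in sedentary and 48.5, 21.3 and 26.6 in trained hearts, with no overlap and 2 sedentary values at background (1.41, SE 0.34). Hand1, a transcription factor of heart development, was 10.2, 62.2 and 12.5 against 28.1, 69.9 and 33.3. Both groups were high at week 3, where the pair differed least (1.01, SE 0.28). The sedentary values of weeks 1 and 5 were near background.

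Some brighter genes also stood apart. Txnrd3, a thioredoxin reductase, was 70.5, 256.0 and 145.0 in sedentary and 48.1, 69.6 and 61.2 in trained hearts, with every trained array below every sedentary one (-1.23, SE 0.23; without week 1, -1.56 with a limma adjusted p of 0.00129). Pus1, a pseudouridine synthase that modifies tRNA, was 32.3, 93.7 and 49.3 against 21.4, 16.7 and 19.3, also without overlap (-1.48, SE 0.33). Tomm34, a factor of mitochondrial protein import, was 80.5, 47.1 and 52.3 against 53.3, 26.7 and 21.1, lower in each pair with overlap. Sod1, cytosolic superoxide dismutase, was 641.6, 1121.9 and 590.0 against 502.4, 541.0 and 566.7, and Sod2, its mitochondrial counterpart, was 225.6, 204.1 and 240.5 against 258.3, 252.3 and 259.5. The groups did not overlap for either enzyme, with Sod1 lower and Sod2 higher in trained hearts (-0.49, SE 0.18, and 0.20, SE 0.12). Over all named genes 2.39% were lower and 2.53% higher without overlap. Sod2 was named outside the naming rules, with earlier results known. Of 30 tested antioxidant genes 29, Sod2 among them, lay within 0.3 log2 units of no difference (median -0.03). In every week 5 of the 30 were higher and 4 lower. Crip1, a LIM domain protein, was 238.2, 219.0 and 267.2 against 290.4, 311.7 and 391.7, all trained values above all sedentary ones (0.45, SE 0.12).

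Ptgds, prostaglandin D2 synthase of vessels and heart, was read by 3 probe sets, all higher in each week, with log2 differences of 0.65 to 0.78. The brightest was 565.1, 988.1 and 749.8 in sedentary and 2497.7, 1091.3 and 778.9 in trained hearts. The trained array of week 1 was far above the others and the groups were nearly level at weeks 3 and 5.

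**Figure D5:**
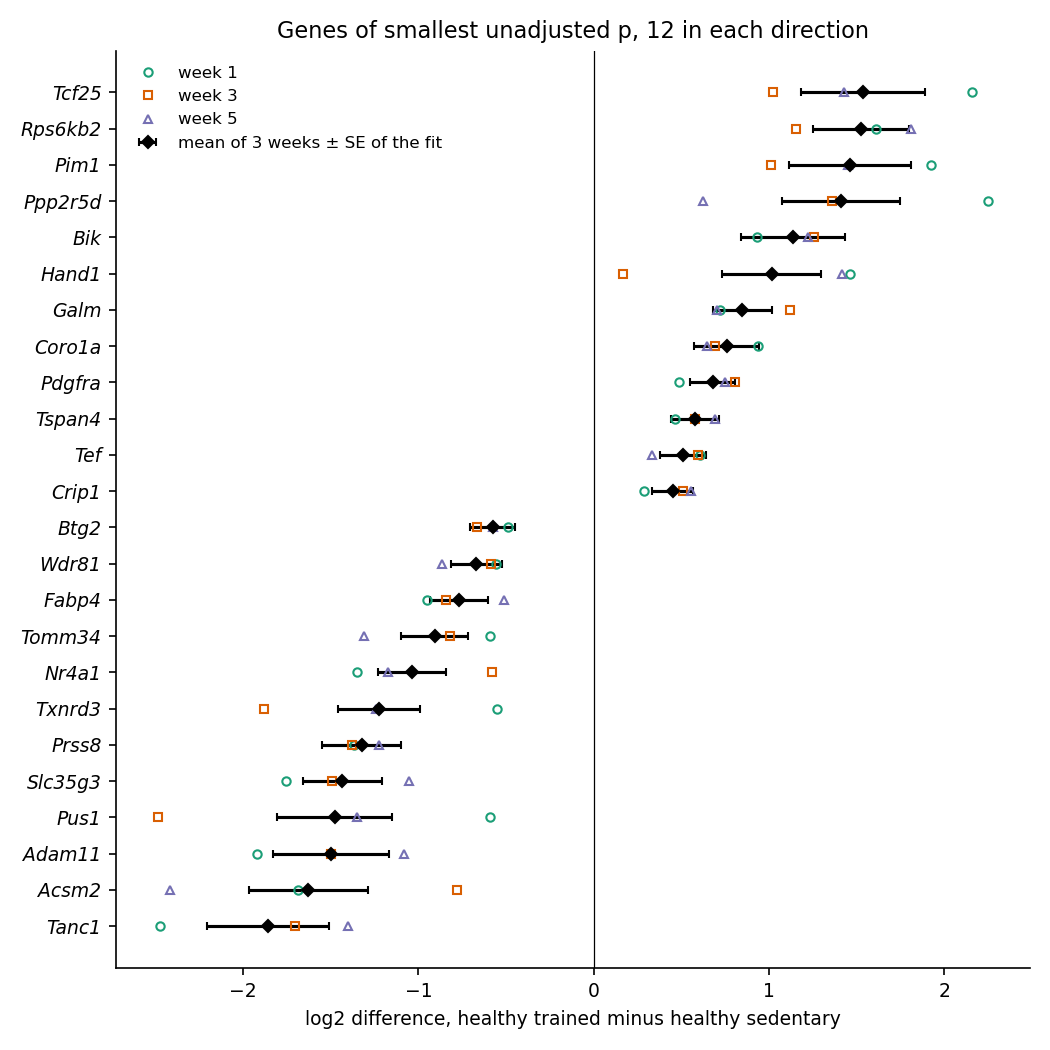
Log2 difference, healthy trained minus healthy sedentary, of the 12 genes in each direction with the smallest unadjusted p among genes that differed in one direction in every week and were above background in a group. Diamonds are means over 3 weeks with the standard error of the fit and open symbols the single weeks; no gene passed the adjusted test (lowest adjusted p 0.875).

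Differences at a single week could be large and of opposite sign at another. At week 1 Rbm4b, an RNA-binding protein, was 61.0 in the sedentary and 6.5 in the trained array, and 32.8 against 56.1 at week 3. At week 3 Psmb9, an immunoproteasome subunit, was 4.6 against 27.5, and 25.7 against 20.8 at week 5. At week 5 H2-T18, a nonclassical class I gene read by a probe set that can share probes with its relatives, was 9.5 against 69.3, and 161.4 against 57.1 at week 1. The low values of 6.5, 4.6 and 9.5 lay under the 11.3 of the brightest absent control and so near background. Such comparisons set 1 array against 1 and were not tested.

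Whether training acted differently in healthy and in diabetic hearts was examined as the difference between both training effects over all 12 arrays. No probe set passed (0%) and 321 had an unadjusted p under 0.05 (4.31%), or 354 (4.75%) when the array of diabetic trained hearts at week 3 was left out, which correlated at r = 0.819 to 0.859 with the other 11. That array had a run day and a chip lot of its own, and each group had its own fluidics module. The smallest p belonged to Pdgfra. In diabetic hearts it was 278.9, 212.7 and 257.6 when sedentary and 217.5, 119.8 and 192.9 when trained, so that training went with lower values there in each week and with higher values in healthy hearts. The effects were -0.53 and 0.68, and their difference was 1.21 (SE 0.22, limma, adjusted p = 0.859), or 1.06 (SE 0.18) without that array.

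Nr4a1 had the next smallest p. It was 39.3, 28.2 and 26.3 in diabetic sedentary and 35.6, 44.1 and 50.3 in diabetic trained hearts, all under the healthy sedentary values of 59.0 to 69.0, and the difference between the training effects was -1.51 (SE 0.35, limma, adjusted p = 0.859). Urm1, a ubiquitin-like modifier of tRNA, Asic2, a proton-gated channel, and Acsm2 followed, with differences of 2.12 (SE 0.49), -2.21 (SE 0.54) and -1.97 (SE 0.48). For the bright early genes Btg2 and Dusp1 the trained array was also the lower in each diabetic pair, with effects of -0.47 and -0.20 beside -0.58 and -0.41 in healthy hearts, and the differences of -0.11 (SE 0.25) and -0.20 (SE 0.18) did not pass.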

How the data were processed

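The deposited values are signal intensities on a linear scale, 1 per probe set and array, which the authors made with MAS5, as the submitters' processing notes state without a version or settings. The 2% trimmed mean of every array was 50.03 to 50.04, so the arrays had been scaled alike. Gene symbols came from the array annotation, updated through RefSeq GRCm38.p6 for 10817 of 12422 probe sets; 1193 have no symbol and 396 have several and were not named.

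Signals under 4.1 (the 20th percentile) were raised to 4.1 before taking log2. Probe sets at or above the 40th percentile of mean log2 signal over the 6 arrays (a geometric mean of 11.46) were tested with limma 3.58.1 in R 4.3.3 (lmFit and eBayes with an intensity trend), with training and week as factors, 2 residual and 5.82 prior degrees of freedom, and Benjamini-Hochberg adjustment over all tested probe sets. A difference is a mean of 3 log2 differences with the standard error of the fit. Week was kept as a block because the titles pair the arrays by week and the arrays of a week shared a run day. The exception was the diabetic trained array of week 3, which had a run day of its own. Deviations of the 6 healthy arrays from their group means correlated at 0.242, 0.285 and 0.606 within weeks and at -0.407 to 0.246 between weeks. Each group, healthy or diabetic, ran on a fluidics module of its own, so module cannot be told apart from training or from the difference between training effects. The arrays of week 5 had a chip lot of their own, so week 5 and that lot cannot be told apart. The number of arrays, 1 pool per group and week, limits the precision. The fit was tested on simulated data.

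Each gene entered its list with its brightest probe set. Genes were named by rule: the 12 of smallest unadjusted p and the 12 of largest difference in every week, in each direction; up to 4 of each list; the largest of each week; all lung markers; and 5 genes for the comparison with diabetic hearts. Others are marked or complete a count of 5 or fewer. Groups, members and lists were chosen with earlier results of these data known. Alternatives were other scalings, floors and filters, no trend, no block, and single arrays or weeks left out.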

Additional observations from a re-analysis of the deposited data

How the results depend on the processing

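No probe set passed the adjusted test of training in healthy hearts under quantile normalization, median centring, other floors, 16 added in place of a floor, no filter or a stricter one, no intensity trend, or a fit of all 12 or 11 arrays. Leaving out a week gave between 0 and 32 probe sets, the latter without week 1. Without the replicate block, 0 passed and 122 had an unadjusted p under 0.05, against 385 with it. For the difference between healthy and diabetic hearts 0 passed under every alternative tried, with 118 at an unadjusted p under 0.05 without the replicate block and 728 when the diabetic trained array of week 5 was left out, against 321. The 12-array fits did not hold Fos, which missed their filter.

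Counts of 2-fold differences at weeks 1, 3 and 5 moved with the treatment of dim probe sets. They were 1008, 1072 and 644 with no filter, 69, 84 and 67 with the stricter filter, and 211 at week 1 and 129 at week 5 with the floor at the 40th percentile.

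Dropping the block cannot move a mean difference in this balanced design, so directions without it are the same by construction. Acta1 became -0.017 under quantile normalization and Nppa 0.012 under median centring. With a week left out the range was -1.38 to 0.021 for Cyp2f2, -1.02 to 0.40 for Ager, -0.037 to 0.021 for Nppa, -0.23 to 0.61 for Nppb, -0.43 to 0.37 for Acta1 and -0.25 to 0.076 for Egr1. In fits without the block and without 1 array, Hspa1a was 0.22, Nppa 0.19 and Acta1 -0.15 without the sedentary array of week 3, Nppa 0.063 and Egr1 0.013 without that of week 1, Nppb -0.24 and Acta1 -0.27 without the trained array of week 3, and Nppa 0.24 and Egr1 0.10 without that of week 5.

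Among list medians, the range with a week left out was -0.30 to -0.080 for skeletal muscle, -0.74 to -0.28 for nerve and glia, -0.022 to 0.063 for fetal genes, -0.10 to 0.0068 for glucose use, -0.0048 to 0.058 for matrix and -0.034 to 0.20 for angiogenic genes. At week 5 alone, an alternative chosen after seeing the data, the medians were -0.37 for skeletal muscle, -0.30 for nerve and glia, 0.23 for heat shock, -0.36 for immediate early, -0.13 for calcium handling and 0.049 for cytoplasmic ribosomal genes. Nerve and glia markers were -0.44 with 16 added, fatty acid oxidation 0.0071 under centring, clock genes 0.24 with the stricter filter, and cytoplasmic ribosomal genes 0.038 under quantile normalization and 0.10 under centring. The causes of these movements were not tested. Leaving Tspan4 out of the clock list was also chosen after seeing the data.

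Signal over background limits the reading of genes with values near the level of the absent controls, among them Fos, Acsm2, Mfap4, Tanc1, Rps6kb2, Tcf25, Pim1, Adam11, Ppp2r5d, Grb10, Dbp, Asic2, Ager, Prss8 and Sftpc. It also limits Thy1, Rbm4b, Psmb9, H2-T18, Gadd45g, Hand1 and Slc35g3, each with a single value under that level.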
